A study of Rattus norvegicus with 8 samples.

Results

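Voltage-gated potassium channel genes were taken from the array by symbol: the Kcna, Kcnb, Kcnc, Kcnd, Kcnf, Kcng, Kcnh, Kcnq, Kcns and Kcnv genes, which encode pore-forming or modifying subunits, and the Kcnab and Kcnip genes, which encode subunits that attach to them. The array carried 57 probes for 45 such genes, and 47 probes for 39 genes passed the filter on dim probes, as did 27152 of the 41012 probes in all. Where a gene had several probes, the one with the highest mean over all arrays stood for it. The tissue was medial thalamus from male Sprague-Dawley rats studied while conscious, 4 that had received tracheal occlusions (brief blocks of the airway) and 4 surgical controls, with 1 array per animal. Occlusion animals had daily sessions for 10 days, with repeated occlusions of 3 to 10 breaths, each followed by about 30 s of recovery. Control animals shared the surgery and the 10 daily sessions and received no occlusions. An overdose of anaesthetic ended the experiment no more than 10 min after the final session, and 1 µg of total RNA per array was labelled with Cy3. The age of the animals was not given in the sources used here. The question was which of these genes differ in level in the medial thalamus after repeated occlusion.

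Voltage-gated potassium channels open when a neuron depolarises, let potassium out and bring the membrane back towards rest. Channels that open quickly and inactivate, the A-type channels, delay firing, channels that open at high voltage and close fast allow rapid firing, and slowly gating channels that open near the firing threshold hold excitability down. A channel is a tetramer of pore subunits. Beta subunits, KChIPs and electrically silent modifier subunits alter its gating or its delivery to the membrane. In the thalamus these currents, together with T-type calcium current, shape whether relay neurons fire single spikes or bursts.

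Levels below are log2 processed intensities minus the 75th percentile of the same array, so 0 is that percentile, and differences are occlusion minus control on the same log2 scale. A level of one probe is not compared with that of another. The share of spots well above background was 65.0% to 71.6% per array, and correlations between arrays ran from 0.953 to 0.986. Both groups were spread evenly over 2 slides, with occlusion 1 and 3 and control 1 and 4 on slide 1. Markers of thalamic relay neurons (Slc17a6, Lef1, Lhx2, Lhx9, Gbx2, Prkcd, Rora and Cacna1g) were well above background on all 8 arrays, with Prkcd and Slc17a6 saturated on some arrays. All 7 markers of GABA neurons of the reticular nucleus and elsewhere (Gad1, Gad2, Slc32a1, Pvalb, Sst, Ecel1 and Spp1) were well above background on every array too, so none was at 0. Control 3 was at an extreme for 3 marker lists. It had the lowest mean level of relay markers of all arrays (-0.12), the highest of GABA markers (1.90) and the lowest of medial habenula markers (-3.33). Control 2 was close to it on relay markers (0.04), and occlusion 3 on medial habenula markers (-2.89). Of the 38 channel genes with a value on every array, control 3 gave the highest of the 8 values for 11 and the lowest for 14, which is 65.8% of them against 38.9% of all kept probes. Where leaving out control 3 moved the difference of a channel gene described here by more than 1.5 times or turned its sign, the value without that array is given. For single marker and partner genes no such value is given.

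The probes of 5 genes that the results turn on most are printed here with their positions in rat assembly rn3, as the scanner files give them, 5′ to 3′ in lower case. The exon under each probe was not looked up, because no annotation of that assembly was used. Kcna4 (chr3:92681090-92681149, + strand), Kcnab2 (chr5:169636425-169636484, - strand), Kcnd2 (chr4:48276958-48277017, + strand) and Kcnh2 (chr4:6224194-6224253, + strand) are shown because their groups did not overlap. Kcnh1 (chr13:108596809-108596868, + strand) is shown as the member with an unadjusted p under 0.05 in the other direction.
Kcna4: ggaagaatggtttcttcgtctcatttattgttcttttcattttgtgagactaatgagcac
Kcnab2: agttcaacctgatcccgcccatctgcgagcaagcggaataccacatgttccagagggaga
Kcnd2: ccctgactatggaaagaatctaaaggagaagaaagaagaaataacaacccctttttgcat
Kcnh2: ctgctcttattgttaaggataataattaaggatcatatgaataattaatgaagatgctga
Kcnh1: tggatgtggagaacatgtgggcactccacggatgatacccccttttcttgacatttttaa
Over the 47 kept probes GC content ran from 26.7%, in the Kcnh2 probe, to 73.3%, in a probe of Kcng2. The longest run of bases shared by probes of different channel genes was 11, so no kept probe of one gene repeats a long stretch of another's.

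No channel gene passed the test between the groups. Of the 39 genes, 23 (59.0%) were higher and 16 lower on occlusion arrays, where 53.6% of all kept probes were higher. Their median difference was 0.18, against 0.02 over all kept probes. That median was smaller in other settings, at 0.03 without occlusion 1, 0.07 with array weights and 0.09 with normexp background correction. Over all 47 kept probes of these genes it was 0.04, with 26 of them (55.3%) higher. An unadjusted p under 0.05 in limma was reached by 6 higher genes, Kcna4, Kcnab2, Kcnc2, Kcnd2, Kcnh2 and Kcnq3, which is 15.4% of the 39 against 6.48% of all kept probes. In the other direction it was reached by 1 gene, Kcnh1, 2.56% against 4.61%. The groups did not overlap, with every occlusion array above every control array, for Kcna4, Kcnab2, Kcnd2 and Kcnh2, 10.3% of the 39 against 3.9% of all kept probes. No channel gene had every occlusion array below every control array, where 2.82% of all kept probes did. After Benjamini-Hochberg adjustment over all 27152 kept probes limma called 0 channel genes and 0 probes (0%), the smallest adjusted p being 0.403. At an unadjusted p under 0.05 there were 3010 probes. A p that misses the threshold does not show equal levels. Without control 3, 25 of the 39 were higher and the median was 0.16. In that setting 7 genes had an unadjusted p under 0.05 in limma, 5 of them higher and 2 lower. They were 17.9% of the 39, against 7.84% of all kept probes.

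**Figure D1:**
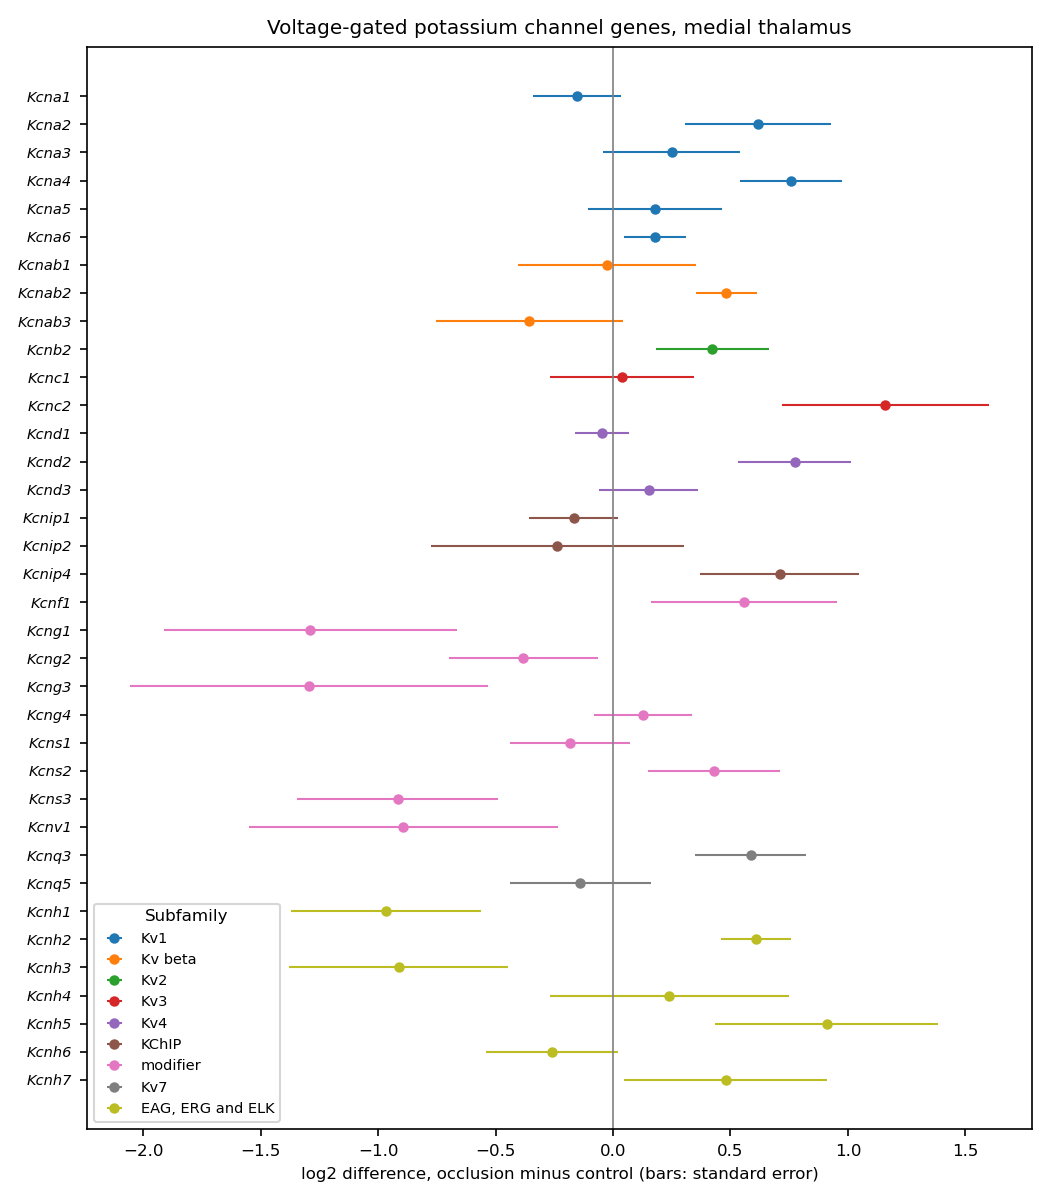
Log2 difference, occlusion minus control, of 36 of the 39 voltage-gated potassium channel genes (points) with its standard error (bars), coloured by subfamily, n = 4 arrays per group (3 occlusion arrays for Kcnh7). Kcnc2 lies furthest to the right at 1.16. Kcng1 and Kcng3, both at -1.29, have wide bars and were not well above background on every array.

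Markers of several cell types lay unevenly between the groups too, none past adjustment in limma. All 8 relay markers were higher on occlusion arrays (median difference 0.66). The log2 of their summed scaled signal ran from 6.09 to 6.56 on occlusion arrays and from 5.39 to 6.25 on control arrays. The largest terms of that sum were Prkcd and Slc17a6, saturated on 4 and 6 arrays, which limits what it shows of the other markers. All 7 GABA markers were lower (median -1.87, or -1.41 with 6 of 7 lower without control 3), with summed signals of 2.34 to 5.41 and 4.43 to 5.95. Gad1, the GABA-making enzyme GAD67, differed by -2.52 (SE 0.65). Of the 9 medial habenula markers 4 were higher and 5 lower (median -0.04), and without control 3 all 9 were lower (median -0.72). The slides gave opposite pictures of them, with 0 of 9 higher on slide 1 (median -1.12) and 8 of 9 higher on slide 2 (median 1.05). Of the oligodendrocyte markers 5 of 7 were lower (median -0.42), among them Mal, a myelin protein, by -1.01 (SE 0.35). The other 2, Mbp and Plp, differed by 0.31 (SE 0.11) and 0.16 (SE 0.14). They were saturated on 7 and 8 arrays, which limits what their values show. Of the astrocyte markers 4 of 6 were lower (median -0.20), among them the water channel Aqp4 by -0.87 (SE 0.27). Slc1a2 and Slc1a3 differed by 0.06 (SE 0.24) and 0.07 (SE 0.15), and Slc1a3 was saturated on 6 arrays. Single markers of neighbouring regions also differed. Ttr, of choroid plexus, differed by 1.83 (SE 0.69). The other 2 kept choroid plexus markers, Folr1 and Otx2, went the other way, at -0.53 (SE 0.21) and -0.59 (SE 0.41). Drd2, of striatum, differed by -0.80 (SE 0.24), and 4 of 5 striatum markers were lower (median -0.23, or -0.08 with 3 lower without control 3). Prox1, of dentate granule cells, was well above background on 4 occlusion arrays and no control array. It passed the filter through the occlusion arrays alone, so the size of its difference is not read here. Slc17a7, the other kept marker of cortex and hippocampus excitatory neurons, differed by 0.54 (SE 0.52). The log2 of the summed signal of 5 of the 6 hypothalamus markers was 5.14 to 6.59 on occlusion 3 and 4 and control 4, and 1.07 to 2.17 on the other 5 arrays. Pmch was left out of that sum for lack of a value on an occlusion array. Avp and Oxt were saturated on 2 arrays each and Pomc on 1, which limits what the sum shows. The part of these markers in the differences between channel genes was not tested. In whole tissue, fewer cells of a type and less RNA per cell cannot be told apart.

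**Figure D2:**
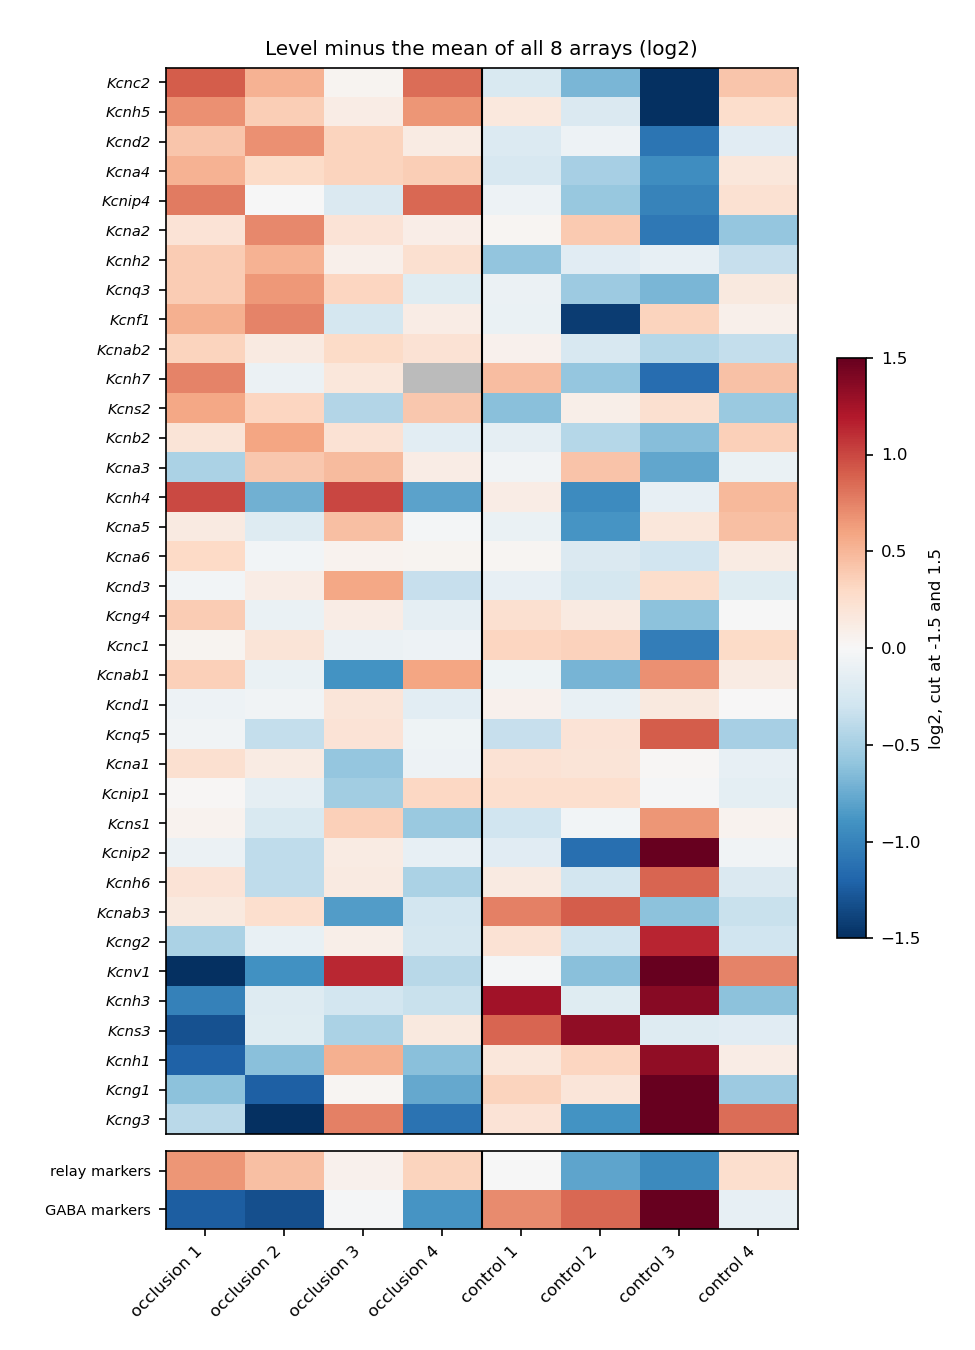
Level of 36 of the 39 channel genes on each array minus the gene's mean over all arrays (log2, colours cut at -1.5 and 1.5; grey, no value), ordered by the difference between the groups, with the mean over 8 relay and 7 GABA markers treated the same way below. Control 3 is the bluest column at the top and the reddest at the bottom, and has the lowest relay and the highest GABA marker level.

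Among the Kv1 subunits, the shaker-type channels of axons and terminals, 5 of 6 genes were higher on occlusion arrays (median 0.22), and the same number was higher on each slide alone. Kcna4 encodes Kv1.4, an inactivating A-type subunit. Its level was 1.04, 0.80, 0.84 and 0.88 on occlusion arrays 1 to 4 and 0.27, 0.01, -0.42 and 0.68 on control arrays 1 to 4. All 4 occlusion arrays were above all 4 control arrays and lay close together (SD 0.10), while the controls were more spread (SD 0.46). The difference was 0.76 (SE 0.22, 95% interval 0.26 to 1.26, 1.69-fold, unadjusted p = 0.00788 and adjusted p = 0.403 in limma). It was 0.47 within slide 1, 1.05 within slide 2 and 0.57 without control 3.

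Kcna2, a low-threshold subunit found in axons, differed by 0.62 (SE 0.31), with occlusion 2 (-1.98) above the other occlusion arrays (-2.60 to -2.49). Without control 3, whose level of -3.78 was the lowest, that difference was 0.36. Kcna1, the other main subunit of axonal Kv1 channels, differed by -0.15 (SE 0.19), and its second probe by 0.18 (SE 0.20), so the sign depended on the probe and both values were within their error of 0. Kcna3, a subunit also known from lymphocytes and microglia, differed by 0.25 (SE 0.29), or 0.03 without control 3. Kcna5, a delayed rectifier prominent in heart, differed by 0.18 (SE 0.28), and Kcna6 by 0.18 (SE 0.13, or 0.11 without control 3). Their groups overlapped.

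Kcnb2 encodes a Kv2 subunit, a slow delayed rectifier of neuronal cell bodies. It was at -2.54, -2.15, -2.52 and -2.90 on occlusion arrays and at -2.87, -3.17, -3.38 and -2.39 on control arrays. Control 4 was above 3 of the 4 occlusion arrays. The difference was 0.42 (SE 0.24, 95% interval -0.13 to 0.97), or 0.28 without control 3, and it was 0.10 within slide 1 and 0.75 within slide 2.

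Kv3 channels open at high voltage and close fast, which lets neurons fire at high rates. Kcnc2 encodes Kv3.2, known from thalamocortical relay neurons and from fast-spiking interneurons. It was at -0.45, -0.84, -1.32 and -0.52 on occlusion arrays and at -1.58, -2.05, -3.17 and -0.95 on control arrays. Control 4 lay above occlusion 3, so the groups overlapped, and control 3 was more than 1 unit below the next control. The difference of 1.16 (SE 0.44, 95% interval 0.15 to 2.17, 2.23-fold) had an unadjusted p of 0.0294 and an adjusted p of 0.417 in limma. It was 0.38 within slide 1 and 1.93 within slide 2, and 0.75 without control 3.

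Kcnc1, encoding Kv3.1, turned with a single array. Its levels were 0.90, 1.05, 0.77 and 0.78 on occlusion arrays and 1.19, 1.21, -0.18 and 1.14 on control arrays. Over all arrays the difference was 0.04 (SE 0.31), but without control 3 it was -0.30 (SE 0.11, unadjusted p = 0.0302 in limma), with all 4 occlusion arrays below the other 3 controls.

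Kv4 subunits carry the A-type current of cell bodies and dendrites. Kcnd2 encodes Kv4.2, the main subunit of that current in many neurons. It was at 2.92, 3.19, 2.84 and 2.63 on occlusion arrays and at 2.30, 2.43, 1.41 and 2.34 on control arrays. All occlusion arrays were above all controls, and control 3 stood well below the other 3 controls. The difference was 0.77 (SE 0.24, 95% interval 0.22 to 1.32, 1.71-fold, unadjusted p = 0.0116 and adjusted p = 0.403 in limma). Without control 3 it was 0.54 (SE 0.15), and it was 0.56 within slide 1 and 0.99 within slide 2.

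The other Kv4 subunits had smaller differences. Kcnd1 lay between -1.31 and -0.97 on occlusion arrays and between -1.27 and -1.01 on control arrays, with a difference of -0.05 (SE 0.11, 95% interval -0.31 to 0.21), the narrowest interval of the 39 genes, or -0.01 without control 3. Kcnd3, encoding Kv4.3, differed by 0.15 (SE 0.21, 95% interval -0.33 to 0.63), or 0.26 without control 3. That difference was 0.42 within slide 1 and -0.12 within slide 2, and a second Kcnd3 probe was too dim to be kept.

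The Kv7 subunits of neurons form the M-current, a slow current that acetylcholine shuts off through muscarinic receptors. Kcnq3, which pairs with other Kv7 subunits in neurons, was at 1.78, 2.05, 1.72 and 1.22 on occlusion arrays and at 1.31, 0.86, 0.71 and 1.55 on control arrays. Occlusion 4 was below controls 1 and 4, and the other 3 occlusion arrays were above every control. The difference was 0.59 (SE 0.24, 95% interval 0.04 to 1.13, unadjusted p = 0.037 and adjusted p = 0.431 in limma), or 0.45 without control 3. Kcnq5 differed by -0.14 (SE 0.30) on its brighter probe and by -0.27 (SE 0.17) on the other. Without control 3, whose Kcnq5 level of 3.26 was the highest, the brighter probe's difference was 0.14. Kcnq1 was too dim to be kept, being well above background on no array.

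The EAG, ERG and ELK genes, which share a cyclic-nucleotide-binding-like domain, included differences in both directions, with 4 of 7 higher. Kcnh2 encodes ERG1, the channel of the cardiac rapid delayed rectifier, which also slows repeated firing in neurons. Its levels were 2.23, 2.38, 1.93 and 2.09 on occlusion arrays and 1.27, 1.69, 1.73 and 1.5 on control arrays. Every occlusion array lay above every control, with similar spread in both groups (SD 0.19 and 0.21). The difference was 0.61 (SE 0.15, 95% interval 0.27 to 0.95, 1.52-fold), with an unadjusted p of 0.00307, the smallest among the channel genes, and an adjusted p of 0.403 in limma. Control 3 was the highest control here, so that without it the difference was 0.67, and the slides gave 0.70 and 0.52.

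Kcnh1 encodes EAG1, a non-inactivating channel of the brain. It was at -0.23, 0.35, 1.52 and 0.35 on occlusion arrays and at 1.15, 1.30, 2.31 and 1.1 on control arrays. Occlusion 3 lay above 3 of the controls, and the other occlusion arrays were below all controls. The difference was -0.97 (SE 0.40, 95% interval -1.89 to -0.04, unadjusted p = 0.0426 and adjusted p = 0.436 in limma). Without control 3 it was -0.68 with an unadjusted p of 0.108 in limma, and without occlusion 3 it was -1.31.

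Kcnh3, an ELK channel of the forebrain, was dim, being well above background on 3 arrays of either group. It was at -5.35, -4.53, -4.61 and -4.66 on occlusion arrays and at -3.07, -4.52, -2.97 and -4.95 on control arrays. Controls 1 and 3 were high, control 2 was barely above the highest occlusion array, and control 4 lay within the occlusion range. The difference was -0.91 (SE 0.46), or -0.61 without control 3. Kcnh5, encoding EAG2, was dim too, being well above background on 4 occlusion and 3 control arrays. It differed by 0.91 (SE 0.48) over all arrays and by 0.39 without control 3, whose level of -6.91 was far below the other controls. Kcnh7, an ERG gene measured on 3 occlusion arrays because 1 spot was flagged as an outlier, differed by 0.48 (SE 0.43), or 0.17 without control 3. Kcnh4, well above background on 2 occlusion and 3 control arrays, differed by 0.24 (SE 0.51). Kcnh6 differed by -0.26 (SE 0.28, or -0.01 without control 3). Kcnh8 was too dim to be kept. So were Kcna7 and Kcna10 of the Kv1 genes and Kcnv2 of the modifiers, all 3 well above background on no array.

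**Figure D3:**
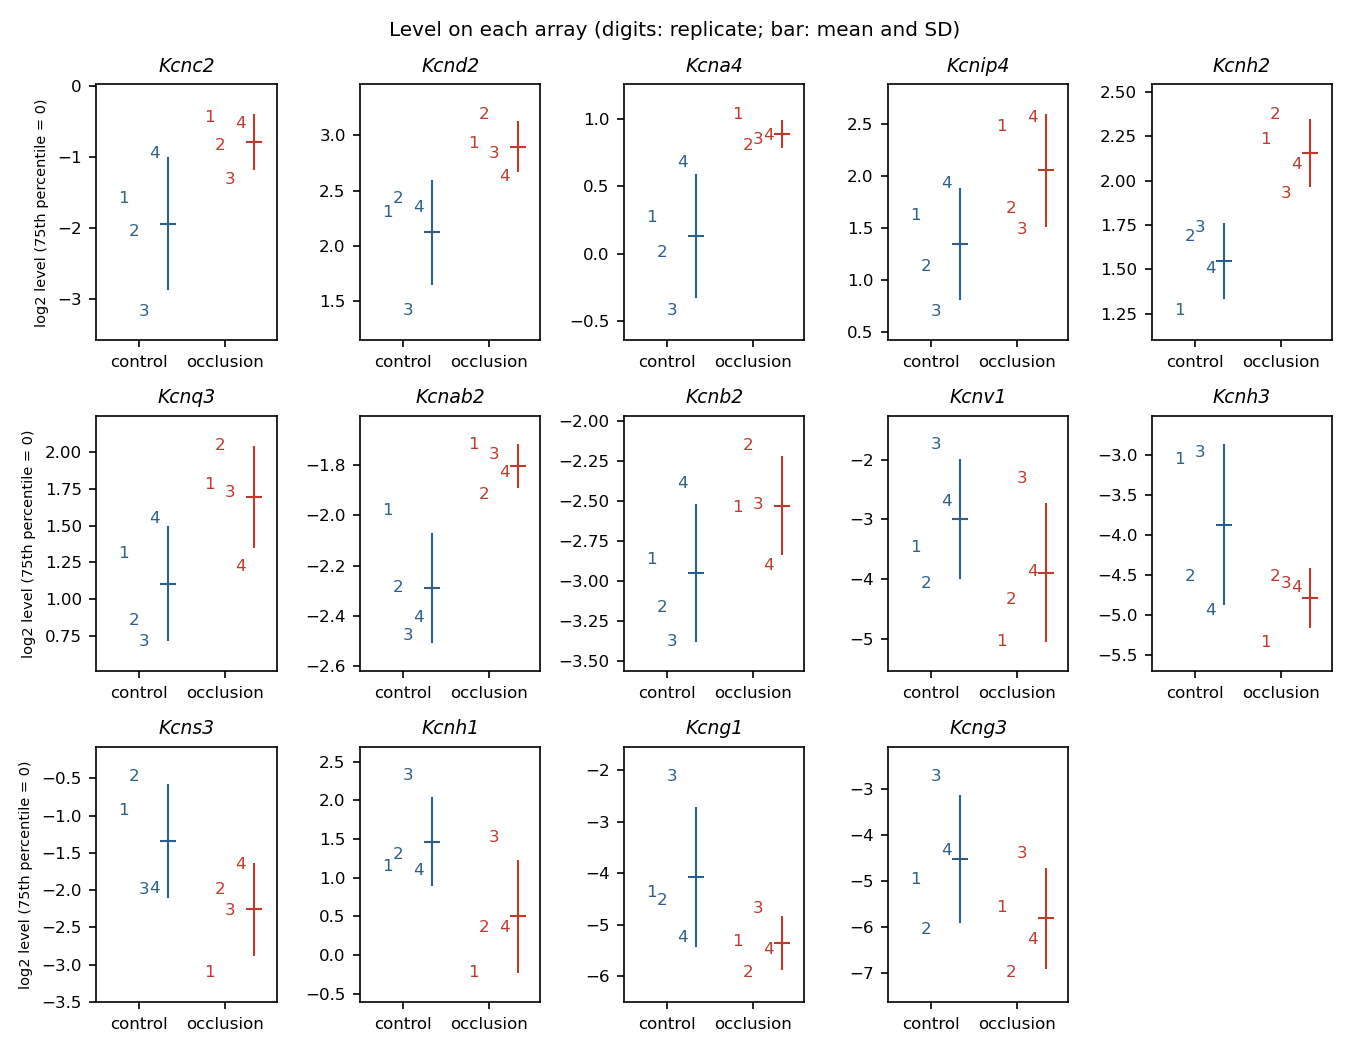
Level on each array of the 14 genes given in full (log2, 75th percentile of the array = 0). Digits are replicate numbers, blue for control and red for occlusion, and bars are the mean and SD of a group. The digits of the groups do not overlap for Kcnd2, Kcna4, Kcnh2 and Kcnab2, and the blue 3 is the lowest or the highest of the controls in each of the 14 panels.

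Modifier subunits form no channel alone and join Kv2 subunits to change their gating. Of 9 kept genes 6 were lower on occlusion arrays (median -0.38), and none had an unadjusted p under 0.05 in limma. The median was -0.06 without control 3. Kcng1 was at -5.33, -5.93, -4.68 and -5.48 on occlusion arrays and at -4.37, -4.52, -2.11 and -5.26 on control arrays. It was well above background on 3 occlusion and 4 control arrays, and control 3 alone was far above the rest. The difference of -1.29 (SE 0.62) was -0.64 without control 3, -0.19 within slide 1 and -2.39 within slide 2.

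Kcng3 was at -5.56, -7.0, -4.40 and -6.27 on occlusion arrays and at -4.96, -6.06, -2.71 and -4.32 on control arrays, and was well above background on 1 occlusion and 3 control arrays. The groups overlapped widely. The difference was -1.29 (SE 0.76), but -0.69 without control 3 and -0.45 with normexp background correction. Kcnv1, encoding a silent subunit of the brain, was at -5.04, -4.35, -2.31 and -3.86 on occlusion arrays and at -3.47, -4.07, -1.75 and -2.70 on control arrays. Occlusion 3 and control 3 were the highest of their groups, and the difference was -0.89 (SE 0.66), or -0.48 without control 3 and -1.42 without occlusion 3.

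Kcns3, a partner of Kv2 subunits, was at -3.11, -1.99, -2.28 and -1.65 on occlusion arrays and at -0.93, -0.47, -2.0 and -1.97 on control arrays. Controls 1 and 2 were above all other arrays, and controls 3 and 4 lay inside the occlusion range. Its difference of -0.92 (SE 0.43, unadjusted p = 0.0636 in limma) was the only one of the 6 lower modifier genes that grew without control 3, to -1.13. Kcns1 differed by -0.18 (SE 0.25), or 0.01 without control 3. Kcng4 turned with that array as well, from 0.13 (SE 0.21) to -0.06. Kcnf1 and Kcns2 had positive differences of 0.56 (SE 0.39) and 0.43 (SE 0.28). Kcnf1 was 0.17 without control 2, whose level of -4.66 was the lowest.

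Kcng2 had 3 kept probes, and all 3 differences were negative, at -0.38 (SE 0.32), -0.40 (SE 0.36) and -0.61 (SE 0.40). The last 2 probes are shown because they are not independent readings: they lie on the - strand at chr18:77263883-77263942 and chr18:77263923-77263982 and share 20 bases, in capitals.
Kcng2, difference -0.40: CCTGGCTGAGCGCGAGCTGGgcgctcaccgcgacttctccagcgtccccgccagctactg
Kcng2, difference -0.61: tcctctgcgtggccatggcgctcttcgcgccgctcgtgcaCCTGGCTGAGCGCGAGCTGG
On all 3 probes control 3 was the highest array, at -1.68, -1.91 and -1.80. Without it the 3 differences were -0.06, -0.06 and -0.19, in the same order.

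Kv beta subunits bind the inner face of Kv1 channels, help them reach the membrane and can bring on inactivation. Kcnab2, the main beta subunit of the brain, was at -1.72, -1.92, -1.76 and -1.83 on occlusion arrays and at -1.98, -2.29, -2.48 and -2.41 on control arrays. All occlusion arrays were above all controls, with the least spread of the 39 genes among occlusion arrays (SD 0.09). The difference was 0.48 (SE 0.13, 95% interval 0.18 to 0.78, 1.4-fold, unadjusted p = 0.00571 and adjusted p = 0.403 in limma). It varied little with the arrays used, at 0.46 and 0.51 within the slides and 0.42 without control 3. Kcnab1 differed by -0.02 (SE 0.38) and by 0.00 (SE 0.31) on its second probe, and was 0.20 without control 3. Its sign on the brighter probe turned under quantile normalization and under scaling to the median. Kcnab3 differed by -0.36 (SE 0.40), by -0.62 without control 3 and by -0.11 without control 2.

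KChIPs are calcium-binding proteins that join Kv4 subunits. Kcnip4 encodes KChIP4, some forms of which slow the inactivation of Kv4 channels. It was at 2.48, 1.69, 1.48 and 2.56 on occlusion arrays and at 1.62, 1.13, 0.70 and 1.93 on control arrays. Occlusion 2 and 3 lay within the control range, and the difference was 0.71 (SE 0.34, 95% interval -0.06 to 1.48), at 0.21 within slide 1 and 1.21 within slide 2. Kcnip2 turned with control 3: it differed by -0.24 (SE 0.54) with that array, at -0.50 the highest, and by 0.33 without it.

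Kcnip1 was read by 2 probes, with differences of -0.17 (SE 0.19) and -0.49 (SE 0.51). They are shown because the scanner files give them different transcript records, and their sequences resemble each other over 34 bases, of which 27 are equal and 7, in capitals, differ. The brighter one lies at chr10:18563101-18563160 on the - strand, and the files place the dimmer one nowhere in rn3.
Kcnip1, difference -0.17: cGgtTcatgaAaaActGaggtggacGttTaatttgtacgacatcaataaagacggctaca
Kcnip1, difference -0.49: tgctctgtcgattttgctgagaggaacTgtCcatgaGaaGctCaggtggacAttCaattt
Whether both read the same gene was not tested.

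**Figure D4:**
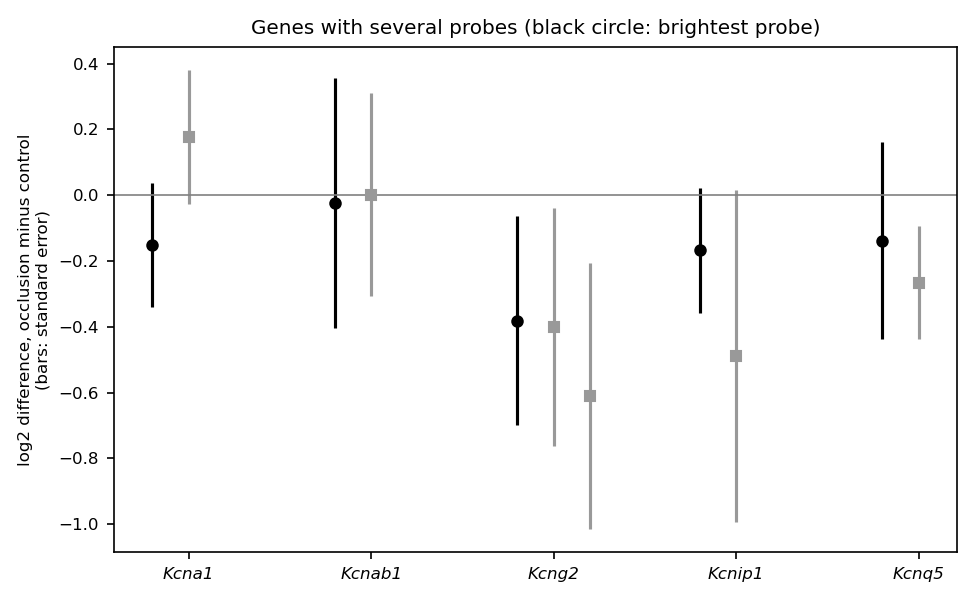
Log2 difference, occlusion minus control, of each kept probe of 5 genes with several kept probes (black circle, the probe with the highest mean; grey squares, the others; bars, standard error). The 3 Kcng2 probes all lie below 0, whereas the probes of Kcna1 lie on both sides of it.

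Each slide gave its own comparison of 2 occlusion and 2 control arrays. Of the 39 genes 20 were higher on both slides, 10 lower on both and 9 in opposite directions, with medians of 0.12 on slide 1 and 0.20 on slide 2. Kcnab2 and Kcnh2 gave similar differences on both slides, whereas Kcnc2, Kcng1, Kcng3 and Kcnip4 differed chiefly on slide 2, the slide with control 3. The difference between slides was not tested. With the slide as a block, the adjusted p in limma was 0.242 for Kcna4, Kcnab2 and Kcnh2 and 0.256 for Kcnd2. On both slides the relay markers were mostly higher on occlusion arrays (7 of 8, median 0.25, and 8 of 8, median 1.14) and the GABA markers mostly lower (6 of 7, median -0.56, and 7 of 7, median -3.06), while the medial habenula markers lay in opposite directions on them.

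**Figure D5:**
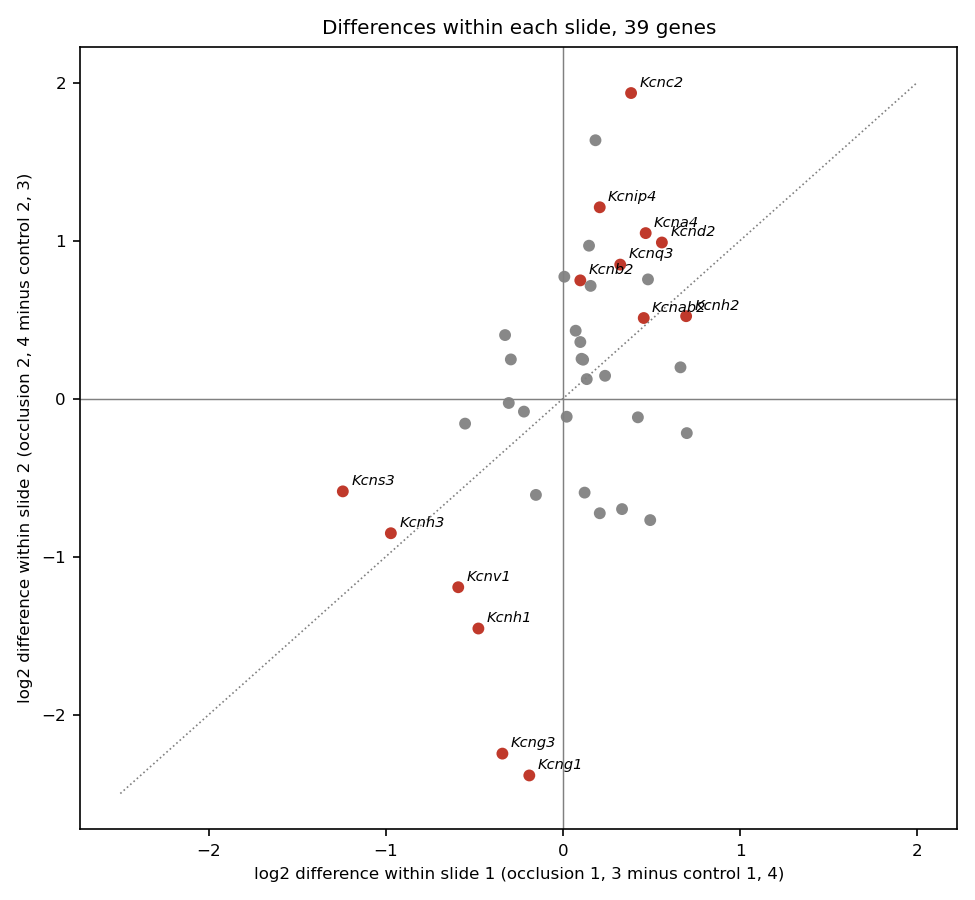
Log2 difference within slide 1 (horizontal) against that within slide 2 (vertical) for 39 channel genes, with the 14 genes given in full in red and named, and equal differences on the dotted line. Kcnab2 (0.46 and 0.51) lies close to the line, while Kcnc2 (0.38 and 1.93) lies far above it and Kcng1 (-0.19 and -2.39) far below.

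Of 24 partner genes on the array that bind, anchor or regulate these channels, 21 were kept, and 16 of them were higher and 5 lower on occlusion arrays (median 0.09), where 53.6% of all kept probes were higher. With quantile normalization 13 were higher and 8 lower, and with normexp background correction or without control 3 these numbers were 14 and 7. On slide 1 alone 15 were higher and 6 lower (median 0.17), and on slide 2 alone 10 and 11 (median -0.01). Over all arrays the groups did not overlap for 2 of the 21, both higher, where 3.9% of all kept probes were higher without overlap. Nedd4l, a ubiquitin ligase that removes Kv7 and other channels from the membrane, was 1 of them (0.56, SE 0.15). The other was Cntnap1, the Caspr protein of the paranodes that flank axonal Kv1 channels (0.52, SE 0.16). An unadjusted p under 0.05 in limma was reached by 4 higher partner genes, where 6.48% of all kept probes reached it. These 4 included Nedd4l, Cntnap1 and Stx1a, a syntaxin that binds Kv2 channels (0.98, SE 0.34). Kcne2, a small accessory subunit of Kv7 and ERG channels, was the 1 lower at that level (-0.75, SE 0.26), where 4.61% of all kept probes were. Actn2, an actin-binding protein that attaches to Kv1.5, differed by -0.65 (SE 0.30). None passed adjustment, the smallest adjusted p being 0.403 in limma. Dpp6 and Dpp10, the main auxiliary subunits of Kv4 beside the KChIPs, differed by 0.02 (SE 0.15) and 0.07 (SE 0.13). Calm2, Calm3 and Snap25 were saturated on 7 or 8 arrays, which limits what their values show, and Kcne1, Kcne3 and Kcne4 were too dim to be kept.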

How the data were processed

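Total RNA of 8 medial thalamus samples was hybridised to Agilent 1-colour arrays. The scanner software was Agilent Feature Extraction 9.5.1.1, per the file headers, and its deposited processed intensity is background-subtracted, linear and not normalised between arrays. Although the design text speaks of a reference, each array was scanned in 1 channel. A table of all arrays, also deposited, holds that intensity with fewer digits. Controls and outlier-flagged spots were masked. The 75th percentile of an array's log2 intensity, over all spots but controls, was subtracted, and spots of a probe were averaged. Probes well above background on at least 4 of 8 arrays, with 2 or more values per group, were kept and compared with limma 3.58.1 in R 4.3.3 (two-sided, Benjamini-Hochberg over 27152 probes, threshold 0.05). The fit was tested on simulated data. The number of arrays limits the precision, and replicates were taken as separate animals from the design text.

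Given in full were genes whose groups do not overlap, the 6 at either end of the ranking by moderated statistic and the strongest of each subfamily. The genes and lists were chosen with earlier results of these data known. The gene symbols are those of the scanner files. Some genes and sequences that enter the counts are not reported here. Alternatives were other scalings, background corrections, filters and variance models, the slide and the replicate number as blocks, each slide alone, each array left out, the deposited table and the mean over a gene's probes.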

Additional observations from a re-analysis of the deposited data

Results flagged for a closer look

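Single arrays far from the other 3 of their group, by Dixon's test, were found in 5 of the 77 groups of channel gene levels tested, where chance gives about 1 in 20. Control 3 was the far array in 3 of them: Kcnc1 at -0.18 (others 1.14 to 1.21), Kcnd2 at 1.41 (others 2.30 to 2.43) and Kcnh1 at 2.31 (others 1.1 to 1.30). Kcna2 was high on occlusion 2 at -1.98 (others -2.60 to -2.49). Kcnh3 was low on occlusion 1 at -5.35 (others -4.66 to -4.53), a gene well above background on 3 of the 4 occlusion arrays.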

How the results depend on the processing

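Under all 23 alternatives limma called no channel gene after adjustment. Over all probes normexp background correction called 1 probe (smallest adjusted p 0.0478), against 0 in the main comparison, and the other alternatives called 0. None of the 305 values of the 14 genes given in full changed direction. These genes were chosen by their statistics in the same arrays, so steady signs were largely set by the choice. Genes outside that choice did turn, as Kcnc1, Kcnip2, Kcnq5, Kcng4 and Kcns1 without control 3. Kcna5 turned without control 2, to -0.09. The 7 genes with an unadjusted p under 0.05 (17.9% of 39, against 11.1% of all kept probes) became 11 with array weights (28.2% against 14.9%), 4 on slide 1 alone (10.3% against 6.52%) and 13 with the replicate number as a block (33.3% against 10.4%). That number was not taken as a pairing in the main comparison. Deviations of same-numbered arrays from their group means correlated at 0.35, 0.51, -0.07 and -0.29, and only the first 2 of these pairs share a slide. Whether same-numbered animals share anything else was not tested. Those whose groups did not overlap, with higher levels after occlusion, numbered 4 over all arrays, 12 on slide 1 (30.8% against 27.4% of all kept probes) and 13 on slide 2 (33.3% against 21.7%), with 2 arrays per group. With lower levels they numbered 0, 2 (5.13% against 14.9%) and 7 (17.9% against 21.3%). Leaving out 1 array at a time gave 4 genes (10.3%, without occlusion 1 or 2, against 7.53% and 8.88% of all kept probes) to 12 (30.8%, without control 4, against 14.6%) at an unadjusted p under 0.05, 4 to 7 (17.9%, without occlusion 3, against 5.91%) higher without overlap, 21 to 25 higher, and a median difference of 0.029 (without occlusion 1) to 0.24 (without control 4). The median of the KChIP genes (-0.17) was 0.33 without control 3 and 0.12 on slide 1, and that of the Kv beta genes (-0.02) was 0.20 without control 3, 0.25 on slide 2 and 0.00 under quantile normalization and scaling to the median. On slide 2 the medians of the EAG, ERG and ELK genes (0.24) and of the Kv4 genes (0.15) were -0.22 and -0.12. With normexp background correction the median of the EAG, ERG and ELK genes was 0.05. The causes were not tested. Signal was not well above background on every array for 7 of the 39 genes.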
